A study of Mus musculus with 37 samples.

Results

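S100a8 and S100a9 encode the subunits of calprotectin, and they are 2 of the 35885 genes measured here in mouse bone marrow and spleen. They were chosen by symbol, and both were found in all 37 libraries. The proteins form a calcium- and zinc-binding heterodimer that is stored in the cytosol of neutrophils and monocytes. Released calprotectin withholds zinc and manganese from microbes and signals through Toll-like receptor 4. In mouse bone marrow the pair is among the most abundant messages of maturing granulocytes, and both genes are used as an index of these cells in other tissues.

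The libraries came from wild-type C57BL/6N mice in 5 groups per tissue. Controls had no social defeat (3 marrow and 4 spleen libraries). Other mice met 1 defeat (4 and 2 libraries), 4 daily defeats (3 and 2) or 10 daily defeats (5 and 6). A last group had 10 daily defeats followed by 1 week without intervention (4 and 4), called rested mice here. Ages and sexes are not given in the sources used here. Marrow was flushed from the femur and spleen was taken whole, so every value is for a mixture of cells. In such samples fewer cells of a type and less RNA per cell cannot be told apart.

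S100a8 lies on chromosome 3 of GRCm38 at 90668978 to 90670035 on the plus strand. S100a9 lies at 90692632 to 90695721 on the minus strand, 22596 bp away with no annotated gene between them. GENCODE M21 gives S100a8 transcripts of 486 and 498 nt and S100a9 transcripts of 512 and 519 nt. The promoter windows of the pair are printed because its members moved together, as described below. Each runs from 250 bases before to 50 bases after the RefSeq start on GRCm38.p6, and capitals mark the C/EBP motif (TTNNGNAA, either strand) and the TATA motif (TATAAA, either strand).
S100a8, chr3:90668821-90669120, plus strand: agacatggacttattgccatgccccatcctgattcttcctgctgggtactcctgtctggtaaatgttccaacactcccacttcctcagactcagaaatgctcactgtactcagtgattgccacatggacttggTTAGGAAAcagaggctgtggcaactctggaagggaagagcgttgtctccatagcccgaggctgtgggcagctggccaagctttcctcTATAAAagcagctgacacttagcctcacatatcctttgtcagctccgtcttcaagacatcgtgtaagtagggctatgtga
S100a9, chr3:90695672-90695971, minus strand: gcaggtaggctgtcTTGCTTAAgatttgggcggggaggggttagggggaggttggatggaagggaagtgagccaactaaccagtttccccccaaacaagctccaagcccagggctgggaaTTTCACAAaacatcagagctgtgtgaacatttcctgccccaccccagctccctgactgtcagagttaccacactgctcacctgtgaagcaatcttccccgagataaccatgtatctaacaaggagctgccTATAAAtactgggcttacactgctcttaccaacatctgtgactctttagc

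The S100a8 window held a C/EBP match at -117 and a TATA match at -30, counted from the RefSeq start at 0. The S100a9 window held C/EBP matches at -236 and -130, both on the opposite strand, and a TATA match at 0. PU.1 letters (GAGGAA, either strand) were found at -170 and -36 for S100a8 and not for S100a9. Neither window held the AP-1 letters (TGANTCA) or the glucocorticoid receptor hexamer (TGTTCT). None of these matches overlapped another of a different motif. Over 27025 RefSeq promoter windows of this kind, 40.7% held the C/EBP letters, 14.2% the TATA letters, 28.3% the PU.1 letters, 7.93% the AP-1 letters and 19.0% the receptor hexamer. The GENCODE start of S100a8 lies upstream of the RefSeq start, inside the window.

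Library composition differed in ways that touch the pair. Values are abundances scaled by the authors, and column totals ranged from 657918 to 1073110 in 32 libraries. The other 5 libraries were all from spleen (10 defeats D6, D7, D9 and D10, rested D2) and had totals from 1539150 to 2652290. Their haemoglobin genes took 45.4% to 58.8% of the total, against 1.74% to 39.8% in the other 13 spleen libraries, and mitochondrially encoded genes took 0.257% to 1.26%, against 2.98% to 12.1%. Tissue markers went with the labels: in controls, 9 of 9 tested macrophage markers and 9 of 10 T cell markers were higher in spleen, and 21 of 22 mature neutrophil markers were lower there (limma with Benjamini-Hochberg adjustment). Over all genes 27.1% were higher in control spleen and 19.2% lower.

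In marrow the pair was already among the most abundant messages without stress. S100a9 held rank 5 and S100a8 rank 6 in all 3 control libraries, and together they held 4.41% to 4.80% of the total. S100a8 was 19175, 20470 and 18173 in controls, and 19058, 21200, 43827 and 23153 after 1 defeat. It was 35417, 70188 and 49768 after 4 defeats, then 42396, 75842, 48790, 49850 and 50079 after 10 defeats. In rested mice it was 39215, 28963, 25074 and 21654. Every library of 4 or 10 defeats lay above all controls, and so did the 4 rested libraries, while after 1 defeat D15 lay within the controls, D16 and D18 just above them and D17 far above them.

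S100a9 was 25256, 27172 and 22650 in marrow controls, and 25224, 27259, 48075 and 30710 after 1 defeat. It was 45784, 81448 and 48241 after 4 defeats, and 58735, 120805, 81140, 67058 and 72347 after 10 defeats. In rested mice it was 53851, 38702, 37909 and 35308. The 10-defeat libraries were all above the controls, the 1-defeat libraries and the rested libraries. S100a9 was the most abundant gene in marrow libraries D12 of 4 defeats, D6 and D9 of 10 defeats and rested D1. In D6 it held 11.5% of the total.

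**Figure D1:**
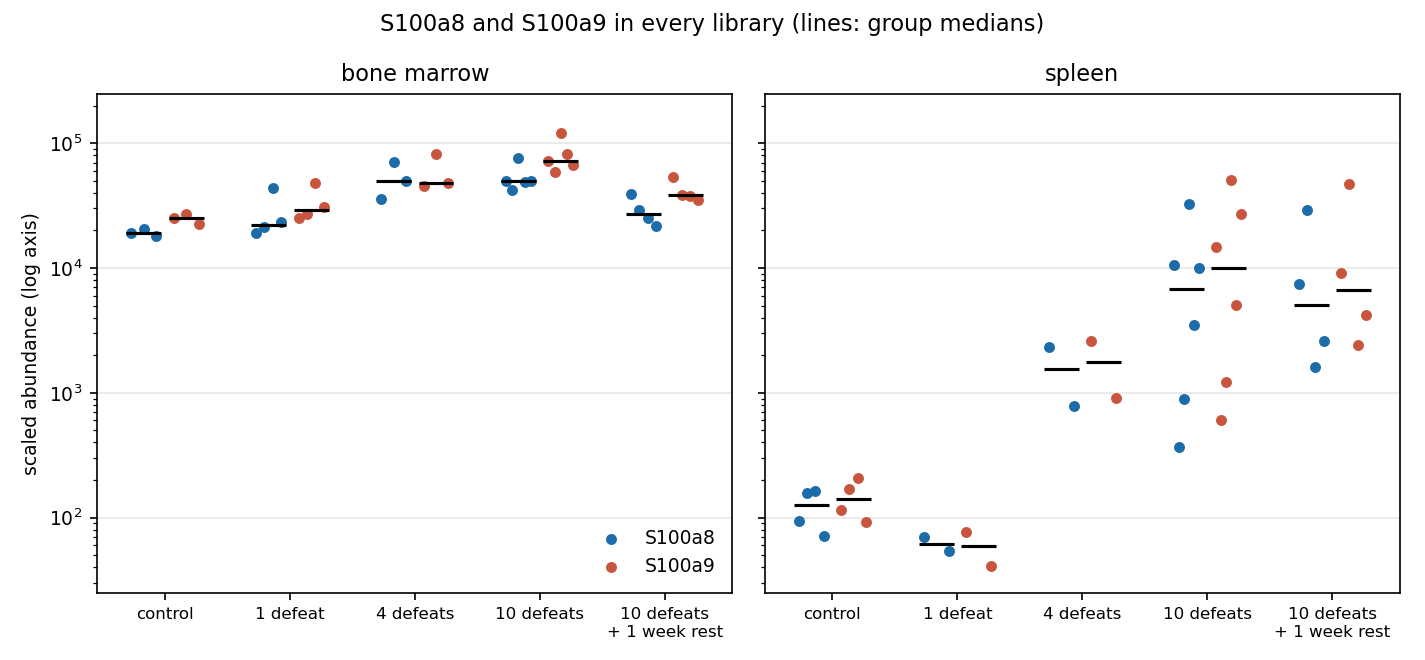
Scaled abundance of S100a8 (blue) and S100a9 (red) in each of the 37 libraries on a log axis, by number of defeats, with group medians as lines. In marrow all 10-defeat libraries of S100a9 (58735 to 120805) sit above the controls (22650 to 27172), and in spleen they span 608 to 50823, against 92.8 to 206 in controls.

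After 10 defeats both genes rose in marrow. S100a8 averaged 53392 ± 12939 after 10 defeats (SD, n = 5) and 19273 ± 1152 in controls (SD, n = 3). Its log2 fold change, on values with 1 added, was 1.44 ± 0.27 (SE), with a limma adjusted p of 0.000727. S100a9 averaged 80017 ± 24211 after 10 defeats and 25026 ± 2270 in controls, a log2 fold change of 1.63 ± 0.25 (adjusted p = 0.000201, limma). In that comparison 17.5% of 12442 tested genes rose and 45.8% changed, with a median change of -0.13 over all genes. The share of calls that were higher was 38.2%, against 53.6% under quantile normalization, 55.2% under median-ratio rescaling and 7.11% with totals made equal without haemoglobin genes. The pair was above controls under each of these scalings, but S100a8 missed the threshold under quantile normalization (1.08, adjusted p = 0.0607).

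The 4-defeat group showed a rise close in size. The log2 fold change of S100a8 was 1.37 ± 0.30 (adjusted p = 0.00684, limma) and that of S100a9 was 1.18 ± 0.28 (adjusted p = 0.00984, limma). Of all genes tested, 7.07% rose and 20.0% changed after 4 defeats. Without library D12 the S100a9 value was 0.91 (adjusted p = 0.0650), and under quantile normalization it was 0.83 (adjusted p = 0.143). Between 10 and 4 defeats the log2 differences were 0.07 ± 0.27 for S100a8 and 0.46 ± 0.25 for S100a9, and neither passed (adjusted p = 0.908 and 0.319, limma, 2.44% of genes called, 1.66% higher and 0.788% lower). Between 10 defeats and 1 defeat they were 1.05 ± 0.25 and 1.29 ± 0.23 (adjusted p = 0.00358 and 0.000602, limma), where 17.6% of genes rose and 38.9% changed.

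After 1 defeat the values were 0.39 ± 0.28 for S100a8 and 0.35 ± 0.26 for S100a9, and neither passed (adjusted p = 0.904 for both, limma, 0.00804% of genes called). Their sizes rested on library D17: without it the values were 0.13 and 0.15.

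Rested marrow held less of the pair than marrow after 10 defeats. S100a8 averaged 28727 ± 7603 in rested mice (SD, n = 4), against 53392 ± 12939 after 10 defeats, a log2 difference of -0.90 ± 0.25 (adjusted p = 0.0177, limma). S100a9 averaged 41443 ± 8398 in rested mice, against 80017 ± 24211 after 10 defeats, a difference of -0.92 ± 0.23 (adjusted p = 0.0114, limma). In this comparison 7.91% of genes fell and 21.7% changed. Under quantile normalization neither fall passed (-0.66 and -0.50, adjusted p = 0.266 and 0.277), and S100a8 also missed without rested library D3 (-0.85, adjusted p = 0.0514) or D8 (-0.78, adjusted p = 0.0566). Against controls, rested marrow was 0.54 ± 0.28 higher for S100a8 and 0.71 ± 0.26 higher for S100a9 on the log2 scale, and neither passed (adjusted p = 0.395 and 0.246, limma, where 0% of genes were called). In that comparison 3 of the 4 rested libraries had less haemoglobin than every control.

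Haemoglobin moved the other way in marrow. It held 11.1% to 26.8% of the total after 10 defeats and 38.7% to 44.3% in controls. With totals made equal without haemoglobin genes the 10-defeat log2 fold changes were 0.95 for S100a8 and 1.14 for S100a9, both still past the threshold. Erythroid markers fell for 8 of 11 tested after 10 defeats, and B cell markers for 9 of 9, where 28.3% of all genes fell. Their part in the rise of the pair was not tested.

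In spleen the pair was low without stress and spread widely after repeated defeat. S100a8 was 93.5, 157, 163 and 71.7 in controls, 70.1 and 53.6 after 1 defeat, and 2309 and 785 after 4 defeats. After 10 defeats its lowest value was 365, its median 6740 and its highest 32417. In rested mice it was 7453, 28885, 1609 and 2589. Each library of 4 defeats, 10 defeats or rest lay above all controls, while both 1-defeat libraries lay below them.

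S100a9 was 114, 168, 206 and 92.8 in spleen controls, 76.7 and 41.3 after 1 defeat, and 2605 and 907 after 4 defeats. After 10 defeats its lowest value was 608, its median 9906 and its highest 50823. In rested mice it was 9118, 47196, 2401 and 4191. Its rank in the library was 5 to 163 after 10 defeats, against 384 to 787 in controls. The fewest reads behind any value of the pair were an estimated 82.4, for S100a9 after 1 defeat in library D16.

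After 10 defeats the log2 fold change in spleen was 5.10 ± 1.04 for S100a8 (adjusted p = 0.00127, limma) and 5.54 ± 1.08 for S100a9 (adjusted p = 0.000956, limma). Here 16.8% of 13945 tested genes rose and 58.8% changed, with a median of -0.36 over all genes. Ordered by log2 fold change, S100a9 held place 4 and S100a8 place 6 of all genes tested. Of the calls 28.6% were higher, against 46.0% under quantile normalization and 52.6% under median-ratio rescaling, and the pair was called higher under both. Without the 5 high-total libraries the values were 2.31 ± 0.66 for S100a8 and 2.63 ± 0.59 for S100a9, still past the threshold (adjusted p = 0.0342 and 0.0143, limma), where 8.59% of genes rose. In the full data 10 of 11 erythroid markers also rose, and 9 of 9 B cell markers and 9 of 10 T cell markers fell, where 41.9% of all genes fell. Their part in the size of the pair's change was not tested.

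After 4 defeats the log2 fold changes were 3.54 ± 1.40 and 3.46 ± 1.45, and neither passed (adjusted p = 0.420 and 0.453, limma, 0.0430% of genes called). Both passed without the 5 high-total libraries, none of which is in this contrast, since they entered through the shared spread (adjusted p = 0.0364 and 0.0274, limma, where 1.08% of genes rose). The log2 differences between 10 and 4 defeats were 1.56 ± 1.32 and 2.08 ± 1.36 and did not pass (adjusted p = 0.358 and 0.236, limma, 15.3% called), and without those libraries they were -1.24 and -0.84. After 1 defeat the values were -0.89 ± 1.40 and -1.28 ± 1.45, not past the threshold (adjusted p = 0.840 and 0.757, limma, 0.688% called, 0.624% higher and 0.0645% lower). Between 10 defeats and 1 defeat the differences were 5.99 ± 1.32 and 6.83 ± 1.36 (adjusted p = 0.00198 and 0.00107, limma), where 14.2% of genes rose and 51.6% changed.

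In rested spleens the pair was also above controls. The log2 fold changes against controls were 5.56 ± 1.14 for S100a8 and 5.86 ± 1.18 for S100a9 (adjusted p = 0.0119 and 0.0110, limma), in a comparison where 3.02% of genes rose, 4.24% fell and 7.26% changed. Without library D2 and the other high-total libraries (the 10-defeat ones enter through the shared spread) they were 4.76 and 5.01 (adjusted p = 0.00203 and 0.000865, limma), where 5.51% of genes rose. Against 10 defeats, rested spleens differed by 0.47 ± 1.04 and 0.32 ± 1.08, not past the threshold (adjusted p = 0.789 and 0.866, limma, 0.567% called). They were 2.46 and 2.39 without the 5 high-total libraries and did not pass (adjusted p = 0.186 and 0.172, limma). The sign rested on single libraries: without rested D2 the values were -0.33 and -0.53, without 10-defeat D4 -0.22 and -0.37, and without 10-defeat D5 0.04 and -0.17.

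**Figure D2:**
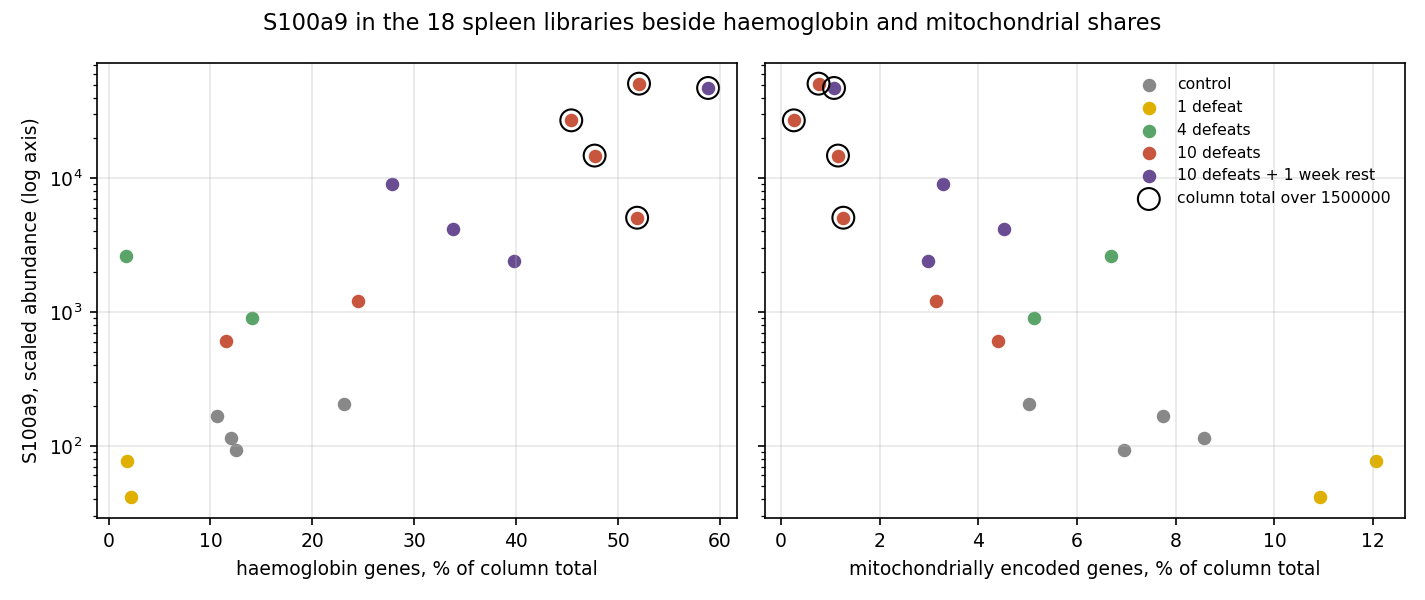
S100a9 in the 18 spleen libraries on a log axis against the share of the column total held by haemoglobin genes (left) and mitochondrially encoded genes (right), coloured by group, with libraries of high total ringed. The 5 ringed libraries lie at 45.4% to 58.8% haemoglobin and 5063 to 50823 S100a9, and the rested libraries D1, D3 and D8 lie at 2401 to 9118 with 27.8% to 39.8% haemoglobin.

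The log2 change was larger in spleen than in marrow after 10 defeats. The spleen fold change after 10 defeats exceeded the marrow one by 3.66 ± 1.18 for S100a8 and 3.91 ± 1.21 for S100a9 (adjusted p = 0.0134 and 0.0106, limma interaction, 16.1% of 14513 genes higher and 43.1% different). Without the 5 high-total libraries these differences were 0.86 and 0.99 and did not pass (adjusted p = 0.320 and 0.202). For 4 defeats the differences were 2.17 ± 1.44 and 2.29 ± 1.48 and did not pass (adjusted p = 0.587 and 0.577, limma, 0.227% of genes higher and 0.0620% lower). For 1 defeat they were -1.29 and -1.63 and did not pass (adjusted p = 0.737 and 0.651, limma, 1.65% of genes higher, 0.152% lower and 1.81% different). The change in rested mice exceeded that of marrow by 5.02 ± 1.26 and 5.15 ± 1.29 (adjusted p = 0.0233 and 0.0236, limma, 2.06% of genes higher). Without the high-total libraries it was 4.22 and 4.30 and passed. These calls were lost when some single libraries were left out (marrow control C1, C2 or C4, spleen control C4 or rested D2), with adjusted p from 0.0550 to 0.0695 (limma). In undefeated mice the pair was lower in spleen, by 7.38 ± 0.92 for S100a8 and 7.48 ± 0.95 for S100a9 on the log2 scale (adjusted p = 8.14e-08 and 1.06e-07, limma), where 19.2% of genes were lower.

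For the step from 10 defeats to rest, the spleen difference minus the marrow one did not pass in the full data (1.37 ± 1.13 and 1.24 ± 1.16, adjusted p = 0.483 and 0.547, limma interaction, 10.2% of genes called). Without the 5 high-total libraries it passed, at 3.36 and 3.31 (adjusted p = 0.00201 and 0.00149).

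Of the ratios of the pair, only that of spleen after 10 defeats passed against controls. No other ratio comparison could pass, since its group sizes keep the smallest adjusted p above 0.05. The log2 ratio of S100a8 to S100a9 in marrow was -0.47, -0.67, -0.73, -0.43 and -0.53 after 10 defeats, against -0.40, -0.41 and -0.32 in controls. All 5 lay below the controls, a mean difference of -0.19 (exact two-sided permutation p = 0.0357, the smallest these group sizes allow, and 0.114 adjusted over 4 comparisons). In rested marrow it was -0.46, -0.42, -0.60 and -0.71, also below every control (exact permutation p = 0.0571, adjusted 0.114). After 4 defeats it was -0.37, -0.21 and 0.04, which overlapped controls (exact permutation p = 0.200, adjusted 0.267).

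As shares of the column total, S100a8 held 0.496% ± 0.495 and S100a9 0.878% ± 0.879 in spleen after 10 defeats (SD, n = 6), against 0.0147% ± 0.0044 and 0.0176% ± 0.0048 in controls (SD, n = 4). All 6 shares lay above the controls for both genes (exact two-sided permutation p = 0.00952, adjusted 0.0381), with mean differences of 0.481 and 0.861 percentage points. These calls were lost with any 1 library left out (adjusted p = 0.0571, exact permutation), and without D6 the S100a8 difference was 0.308. The differences were 0.0656 and 0.0998 without the 5 high-total libraries, with only D4 and D5 left of the 10-defeat group. They could not pass, since the exact permutation p of 0.133 was then the smallest the test allows. In marrow after 10 defeats S100a8 held 5.32% ± 1.08 and S100a9 7.95% ± 2.04 (SD, n = 5), above every control. The exact permutation p was 0.0357, the smallest these group sizes allow, and 0.114 adjusted.

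In spleen the ratio after 10 defeats ran from -1.44 to -0.45 with a median of -0.59, against -0.37 to -0.10 in controls. All 6 libraries lay below the controls, a mean difference of -0.44 (exact two-sided permutation p = 0.00952, adjusted 0.0381). With any 1 of the 10 libraries left out the call was lost, since fewer libraries raise the smallest p the test allows, and the difference without D9 was -0.30. Without the 5 high-total libraries the difference was -0.32, with only D4 and D5 left of the 10-defeat group. The exact permutation p of 0.133 was then the smallest the test allows, so this difference could not pass. After 4 defeats the spleen ratio was -0.17 and -0.21, within the range of controls, a mean difference of 0.08 (exact permutation p = 0.400). In rested spleen the ratio was -0.29, -0.71, -0.58 and -0.70, which overlapped the controls (exact permutation p = 0.0857, adjusted 0.171). S100a9 exceeded S100a8 in every library except marrow D14 of 4 defeats and spleen D16 of 1 defeat.

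**Figure D3:**
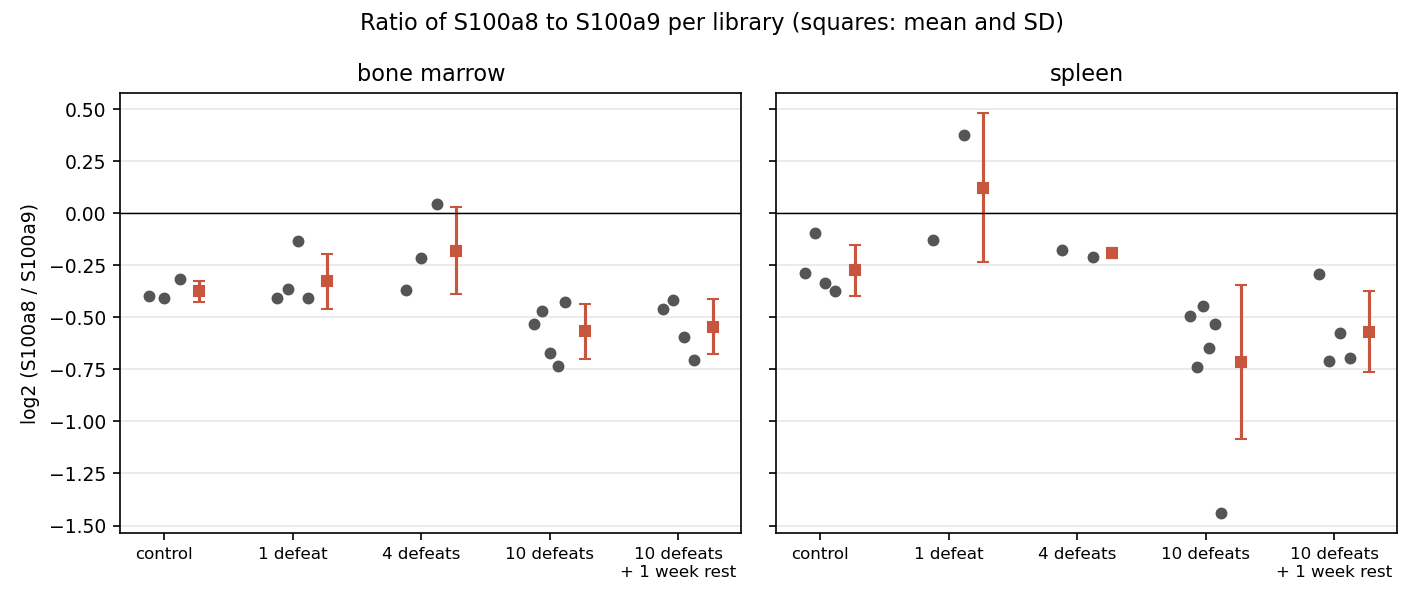
Log2 ratio of S100a8 to S100a9 in each library by group (points), with group mean and SD (squares). After 10 defeats all libraries lie below the controls in both tissues, and the spleen library D9 lies at -1.44.

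The pair was set beside other members of its family. In marrow S100a8 and S100a9 made up 94.4% to 96.4% of the summed value of 16 S100 genes in every library. In spleen they made up 57.4% to 97.2% after 10 defeats and 80.8% to 96.9% in rested mice, against 16.5% to 26.7% in controls. The sums are on the authors' scale, on which 1 read counts for less in a longer transcript.

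Of the 10 S100 genes that passed the filter in marrow, 8 rose after 10 defeats, the pair included, where 17.5% of all genes rose. The list median was 1.25 and that of all genes was -0.13. S100a6, another calcium-binding protein, changed by 2.11 ± 0.27, and S100a4, which binds non-muscle myosin, by 1.69 ± 0.16. S100a10, the annexin A2 partner, changed by 1.03, S100a11 by 1.21, S100a13 by 1.28 and S100a1 by 1.08. S100a3 (0.29) and S100a16 (-0.01) did not pass. Of the 9 tested in spleen, 2 passed after 10 defeats, and these were S100a8 and S100a9. S100a6 (1.10) and S100a1 (1.08) did not pass (adjusted p = 0.136 and 0.0612, limma), and the remaining 5 lay between -0.33 and 0.01.

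**Figure D4:**
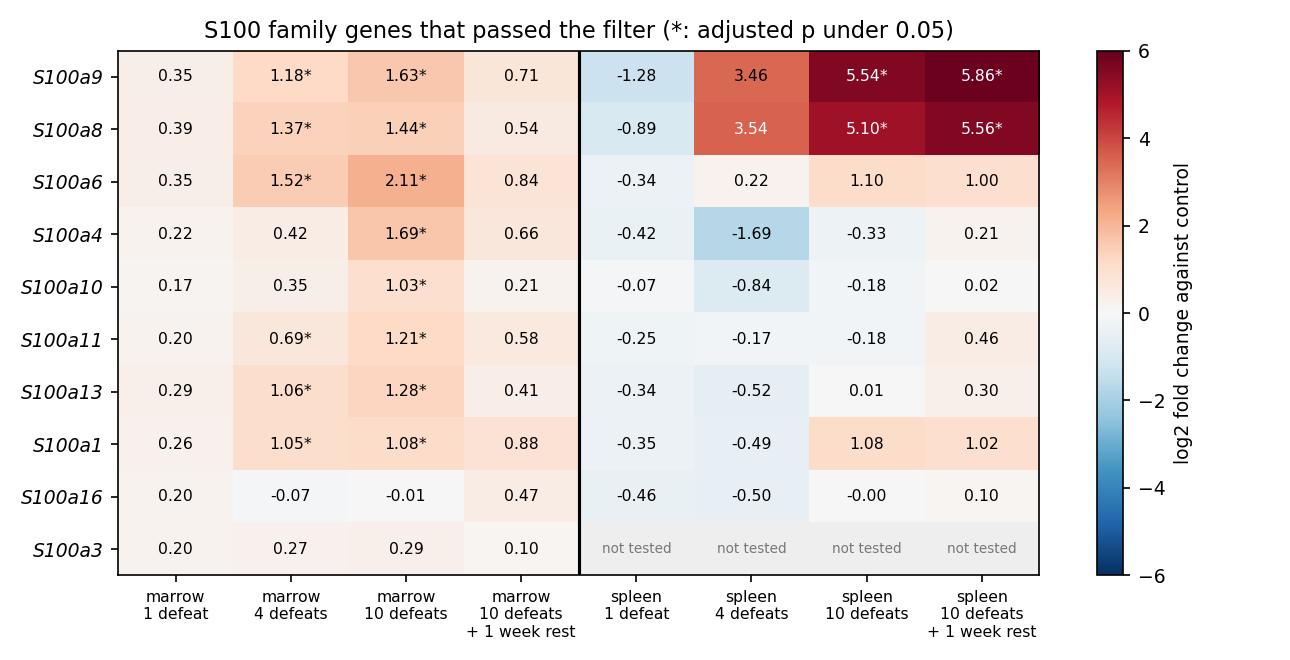
Log2 fold changes against control of the S100 genes that passed the filter, in marrow (left) and spleen (right), with asterisks where the adjusted p is under 0.05. In marrow after 10 defeats 8 of 10 genes carry one, and in spleen S100a9 (5.54) and S100a8 (5.10) carry one.

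Receptors and adaptors of calprotectin moved less evenly. In marrow after 10 defeats 5 of 11 rose and 1 fell, where 17.5% of all genes rose and 28.3% fell. Tlr4, the signalling receptor, changed by 0.98 ± 0.20, its partner Ly96 by 0.87 ± 0.16 and the co-receptor Cd14 by 1.39 ± 0.25. The adaptor Myd88 changed by 1.10 ± 0.17 and the adhesion receptor Mcam by 1.47 ± 0.30, while the scavenger receptor Cd36 fell by 0.99. Tlr4 stood at 6.8 ± 1.1 after 10 defeats and 3.0 ± 0.5 in controls (scaled abundance, SD, n = 5 and 3). Ager (0.29), Bsg (-0.20), Ticam1 (0.15), Nptn (0.07) and Cd69 (-0.25) did not pass. With totals made equal without haemoglobin genes the list had 5 higher and 4 lower, where 605 of 8515 calls over all genes were higher.

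Spleens of 10 defeats had 1 of 11 of these genes higher and 4 lower, near or below the shares over all genes (16.8% higher and 41.9% lower). Bsg, which encodes the glycoprotein basigin that also sits on red cells, changed by 2.04 ± 0.34. Ticam1 (-1.23), Mcam (-1.03), Cd69 (-0.70) and Ager (-0.63) fell. Tlr4 (0.18), Ly96 (-0.31), Cd14 (-0.15) and Myd88 (-0.09) did not pass. Erythroid markers rose in the same comparison, 10 of 11, and their part in the Bsg value was not tested. In this list 1 rose and 1 fell without the 5 high-total libraries, where 8.59% of all genes rose and 15.2% fell.

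Transcription factors known to act on the pair or on granulocyte development were next. In marrow after 10 defeats 6 of 9 rose, against 17.5% of all genes. Cebpb, a C/EBP factor of emergency granulopoiesis, changed by 1.95 ± 0.27 (SE). Its scaled abundance was 56.7 ± 12.4 after 10 defeats and 13.7 ± 2.5 in controls (SD, n = 5 and 3). Cebpd changed by 1.17, Cebpe, needed for secondary granule genes, by 0.91, Spi1 (PU.1) by 0.92, Stat3 by 0.69 and Cebpa by 0.35. Cebpa had the opposite sign with totals made equal without haemoglobin genes. Hif1a (0.29), Gfi1 (0.20) and Nr3c1, the glucocorticoid receptor (-0.04), did not pass. Against 10 defeats, Cebpb fell by 1.31 and Cebpd by 0.57 in rested marrow.

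In spleen after 10 defeats 2 of 9 rose and 5 fell, against 16.8% and 41.9% of all genes. Cebpe changed by 2.97 ± 0.53 and stood at 12.5 ± 9.4 after 10 defeats (SD, n = 6), against 0.3 ± 0.1 in controls (SD, n = 4). Cebpd changed by 0.86. Stat3 (-1.68), Hif1a (-1.51), Cebpa (-0.85), Nr3c1 (-0.56) and Spi1 (-0.49) fell. Cebpb did not pass (-0.30, adjusted p = 0.471, limma). Without the high-total libraries 1 of the 9 rose and 0 fell, against 8.59% and 15.2% of all genes.

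Other granulocyte genes rose beside the pair. In marrow after 10 defeats 21 of 22 mature neutrophil markers rose, with a median of 1.15, and 6 of 6 early granule markers rose, with a median of 1.12, where 17.5% of all genes rose. Camp, an antimicrobial peptide of secondary granules, changed by 1.41, Wfdc21 by 1.61, Ly6g by 1.30 and Retnlg by 1.16. The protease genes Prtn3 (1.76) and Elane (1.10), with Prss57 (1.24) and Ms4a3 (1.14), rose as well. Against the same 17.5%, all 6 phagocyte oxidase genes rose, Cyba by 1.06 and Ncf1 by 0.81 among them. Of 6 metal-binding or transporting genes tested, Mt1 (1.22), Ltf (1.52) and Lcn2 (1.41) rose. Ltf and Lcn2 are also in the neutrophil list.

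After 4 defeats in marrow 8 of 22 mature neutrophil markers rose and 6 of 6 early granule markers, where 7.07% of all genes rose. Without library D12 these were 2 of 22 and 6 of 6, where 1.61% of genes rose. In rested marrow against 10 defeats 11 of 22 mature markers fell and 1 of 6 early ones, Prtn3, where 7.91% of all genes fell. Camp, Ngp and Retnlg had the opposite sign there under quantile normalization.

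In spleen after 10 defeats 15 of 22 mature neutrophil markers rose and 1 fell, where 16.8% of all genes rose and 41.9% fell. Ngp changed by 4.64, Lcn2 by 3.94, Retnlg by 3.53 and Ltf by 3.39. All 6 early granule markers rose, with Prtn3 at 5.60, Elane at 5.24, Ctsg at 5.09 and Mpo at 4.20. Mt2 (2.30) and Mt1 (1.60), metallothioneins that bind zinc, rose too. No phagocyte oxidase gene rose and 4 of 6 fell, beside 41.9% of all genes, among them Cybb by 1.10, Rac2 by 2.12 and Ncf1 by 0.72. Without the 5 high-total libraries 8 of 22 mature markers rose and 1 fell, 5 of 6 early markers rose, and 2 of 6 oxidase genes fell, where 8.59% of all genes rose and 15.2% fell.

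In rested spleen 14 of 22 mature and 6 of 6 early markers were higher than in controls, where 3.02% of all genes were. Without the high-total libraries these were 16 of 22 and 6 of 6, where 5.51% were. After 4 defeats 2 of 22 mature markers passed, Mmp8 (4.12) and Lcn2 (4.38), and 0 of 6 early ones, where 6 genes of all tested passed. Leaving out the 5 high-total libraries, 9 of 22 mature and 0 of 6 early markers passed, where 1.08% of all genes rose. At an unadjusted limma p under 0.05, in either direction, the number over all genes was 1314 in the full data and 2855 without those libraries.

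**Figure D5:**
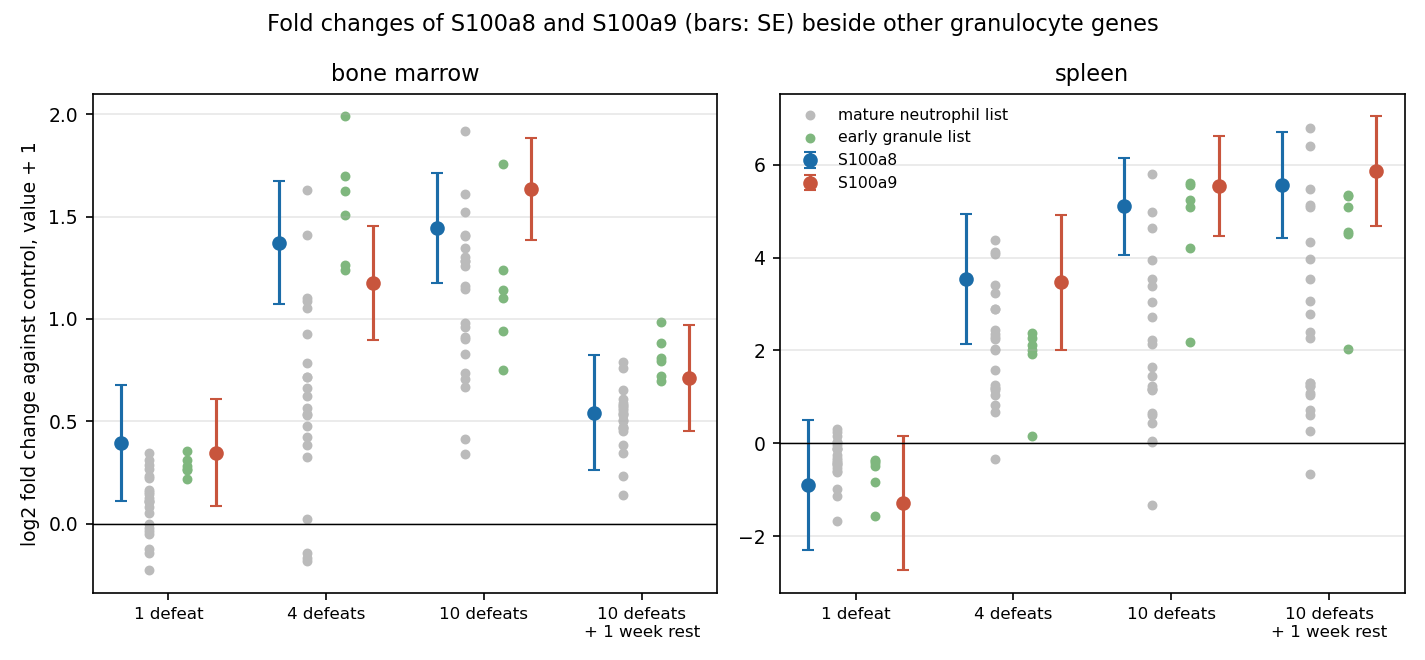
Log2 fold changes against control of S100a8 (blue) and S100a9 (red) with SE bars, beside the 22 mature neutrophil genes (grey) and 6 early granule genes (green), by group and tissue, on separate scales. In spleen after 10 defeats S100a9 (5.54) and S100a8 (5.10) lie near the top of the grey points and within the range of the green ones.

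The pair was also measured relative to the mean log2 value of the mature neutrophil list in each library. In marrow after 10 defeats this difference was 6.53 ± 0.14 for S100a8, against 6.18 ± 0.05 in controls, and 7.09 ± 0.23 for S100a9, against 6.55 ± 0.09 in controls (SD, n = 5 and 3). All 5 libraries lay above the controls for both genes (exact permutation p = 0.0357, the smallest these group sizes allow, adjusted 0.114). Relative to the early granule list the marrow groups overlapped. There S100a8 ran from 6.93 to 7.62 after 10 defeats, against 6.85 to 7.05 in controls. S100a9 ran from 7.40 to 8.21, against 7.25 to 7.46. In spleen after 10 defeats the level relative to the mature neutrophil list exceeded that of controls by 3.07 for S100a8 and 3.51 for S100a9 (exact permutation p = 0.00952, adjusted 0.0381 for both). The excess was 1.16 and 1.48 without the 5 high-total libraries, which left only D4 and D5 of the 10-defeat group. It could not pass there, since p = 0.133 (exact permutation, adjusted 0.178) was the smallest the test allows. Any 1 library left out also ended the calls (adjusted 0.0571). Relative to the early granule list the excess was 0.45 and 0.90 and did not pass (exact permutation p = 0.448 and 0.219). Many neutrophil genes stood near 0 in spleen controls, where the added 1 makes fold changes smaller.

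Genes with the pattern most like the pair differed by tissue. Over the 19 marrow libraries S100a8 was closest to Atxn10 (Pearson r = 0.986 of log2 values), Anxa1, the annexin of neutrophil cytosol, and Mettl9. S100a9 was closest to Ltf (r = 0.991), Chil1 and Mapk3. Neither was the other's nearest gene in marrow. S100a9 was at place 53 for S100a8 and S100a8 at place 103 for S100a9 among 6153 genes, with r = 0.961. Over the 18 spleen libraries each was the other's nearest gene (r = 0.996), followed by Wfdc21 (r = 0.986 and 0.984). Trem3, Ms4a3, Hp, Chil3 and Tmem40 were in the nearest 8 of both. Libraries share groups, depth and composition, so these values describe the libraries and carry no test.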

How the data were processed

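Polyadenylated RNA of 19 marrow and 18 spleen libraries was sequenced after stranded library preparation, per the labels' protocols. The submitters' processing notes name kallisto 0.46.1, sleuth and GRCm38, without their roles. Values in the deposited table are a signal for every gene, scaled by the authors. No source used here names the scaling, no read counts were used, and column totals give no depth.

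Low values of 9751 single-transcript genes fell within 0.1 of whole multiples of 1 read for 61.9% to 78.0% of values, with a fragment of 200 bp assumed, too few to recover counts. Read numbers are estimates from these steps. No columns were identical, and the highest correlation between libraries was 0.9955.

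The 5 groups of a tissue shared a limma 3.58.1 fit (R 4.3.3, trended robust prior) on log2(value + 1). Genes at 1 or more in at least 3 marrow or 2 spleen libraries were tested. Benjamini-Hochberg adjustment ran over all tested genes, with a threshold of 0.05. Tissues were compared as an interaction over 37 libraries. Ratios, shares of the total and levels relative to marker means were compared with exact permutation tests (SciPy 1.17.1). Scripts were tested on simulated data. Alternatives were another normalization, pseudocount 0.1, no filter, fits of the compared groups, single libraries left out, and, added after seeing the data, the spleen libraries with a total over 1500000 left out, and list counts without D12.

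Libraries were grouped by the labels, and the series' design text calls them biological replicates. Named genes were the pair, all tested members of the S100, receptor and regulator lists, up to 4 members of other lists with the smallest adjusted p, and the 8 genes with the highest r. Values of some list members are not reported here. The members and lists were chosen with earlier results of these data known. Symbols, coordinates and transcripts came from GENCODE M21, which held 35626 of 35885 identifiers, and promoters from RefSeq on GRCm38.p6.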

Additional observations from a re-analysis of the deposited data

Results flagged for a closer look

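Several libraries stood apart from their group by a gap test on the highest or lowest value (Dixon, 95%). It was met by 6 of 18 group and measure pairs. Chance meets this test in about 1 in 20 groups only where values are normally distributed. Abundances entered it unlogged and the measures of a group are related, so 6 of 18 cannot be set against that rate. The test was not run on log2 abundances. In marrow S100a8 was 43827 in 1-defeat library D17, against 19058 to 23153 in the other 3, and its log2 ratio to S100a9 was -0.13, the highest of that group. After 10 defeats S100a8 was 75842 in marrow library D6, against 42396 to 50079 in the other 4. In spleen S100a8 was 32417 in 10-defeat library D6, and the log2 ratio was -1.44 in 10-defeat library D9. In rested spleen S100a9 was 47196 in library D2. Libraries D6, D9 and D2 of spleen are among the 5 of high total, and D6 of marrow had the least haemoglobin of the marrow libraries (11.1%).

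The stress effect differed between tissues in the full data. The spleen change after 10 defeats exceeded the marrow change by 3.66 for S100a8 and 3.91 for S100a9 on the log2 scale (adjusted p = 0.0134 and 0.0106, limma). Without the 5 high-total spleen libraries these differences were 0.86 and 0.99 and did not pass (adjusted p = 0.320 and 0.202, limma). The spleen change in rested mice exceeded the marrow change by 5.02 for S100a8 and 5.15 for S100a9. These calls were lost without marrow control C1, C2 or C4, spleen control C4 or rested spleen D2, each left out alone (adjusted p from 0.0550 to 0.0695, limma).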

How the results depend on the processing

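Of 948 alternative values for 80 results on the pair, 867 kept their side of the threshold, and none changed direction while called. The 867 include values that changed sign where neither the main value nor the alternative passed. Also among them are the exact permutation tests in marrow, and those in spleen for groups other than 10 defeats. Group sizes keep those tests above the threshold in every setting, so their side of it was fixed in advance. Under quantile normalization S100a9 after 4 defeats in marrow was 0.83, S100a8 after 10 defeats 1.08, and the rested minus 10-defeat values -0.66 for S100a8 and -0.50 for S100a9. None of these 4 passed. Quantile normalization sets each value by its rank in the library, and marrow ranks were 2 to 7 for S100a8 and 1 to 5 for S100a9. The part of this in the lost calls was not tested. Without the 5 spleen libraries of high total (chosen after seeing the data), the 4-defeat values 3.54 and 3.46 in spleen passed, and so did the spleen minus marrow difference 2.29 of S100a9 after 4 defeats and the rested minus 10-defeat differences 3.36 and 3.31. Values that no longer passed were the 10-defeat differences between tissues (0.86 and 0.99), and in spleen after 10 defeats the log2 ratio (-0.32), the shares of the total (0.0656 and 0.0998 percentage points) and the levels relative to mature neutrophil genes (1.16 and 1.48). Relative to early granule genes these levels were 0.45 and 0.90. With 1 library left out, values lost their call at some point in these ranges: S100a9 in marrow after 4 defeats 0.91 to 1.33, S100a8 rested minus 10-defeat in marrow -1.06 to -0.77, the rested spleen minus marrow difference 4.22 to 5.61 for S100a8 and 4.30 to 5.74 for S100a9. In spleen after 10 defeats the ranges were -0.50 to -0.30 for the log2 ratio, 0.308 to 0.570 and 0.608 to 1.02 points for the shares, and 2.72 to 3.51 and 3.16 to 3.95 relative to neutrophil genes. Those exact tests cannot reach the threshold with 1 library fewer, nor without the 5 high-total libraries.

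Counts of genes called moved by more than 1.5 times in many comparisons. Against controls they ran from 699 (without D12) to 4829 in marrow after 4 defeats (main count 2493) and 0 to 245 in spleen after 4 defeats (6). They ran from 3243 to 9030 in spleen after 10 defeats (8196) and 201 to 2260 in rested spleen (1012). In rested marrow the main count was 0, with 396 in a fit of the compared groups only, where neither gene of the pair passed. Rested minus 10-defeat counts ran from 1301 to 6588 in marrow (2700) and 0 to 2316 in spleen (79). For 10 minus 4 defeats in spleen they ran from 0 to 6362 (2140). Marrow and spleen libraries shared 15 numbers, and no label says that a number is an animal, so the numbers were not taken as pairs. Deviations of same-numbered libraries from their group means correlated from -0.204 to 0.350, with 3 best matched to their own number. These correlations, between different tissues and in small groups, cannot tell whether a number is the same animal. A fit with number as a replicate block gave 10-defeat differences of 3.67 and 3.92 and changed no call of the pair. Column totals carry no depth, so no counting error could be given.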
